A study of Mus musculus with 2 samples.

Results

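The 30 genes described here are targets and partners of p53, the transcription factor that vertebrate cells stabilise after DNA damage. They and the gene lists compared with them below were chosen by name, with earlier results of these data known. All 30 were found among the 31055 features of the deposited matrices, each listed once. They were measured by single-cell RNA sequencing in tumour tissue of mice with the genotype Math1-Cre;SmoM2fl/fl. In these animals Cre is driven by Math1, a gene of granule neuron progenitors, and turns on SmoM2, which encodes a Smoothened protein that signals without its SHH ligand, so that medulloblastoma forms in the cerebellum. Both groups carry this genotype and both were irradiated: 1 library came from tumour cells of the standard proton arm and 1 from those of the FLASH proton arm, where the dose was given at a far higher dose rate. No unirradiated library was analysed here, so no value below separates an effect of irradiation from the level before it. The dose is 5 Gy in the sample labels and 10 Gy in the series design, a conflict that the files do not settle. No source used here gives the age of the animals, the time from irradiation to harvest, or whether a library pools several tumours.

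As background, p53 is held low in unstressed cells by Mdm2 and Mdm4, and damage signalling frees it to switch on genes for cell cycle arrest, DNA repair and cell death. Cdkn1a, which encodes the cyclin-dependent kinase inhibitor p21, is its best known arrest target, and Mdm2 is itself a target, which closes a negative feedback loop. Granule neuron progenitors and SHH medulloblastoma cells with intact p53 are known for p53-dependent death after irradiation. Several of these genes also answer to other signals, so a high level of a single member does not identify p53 as the regulator.

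Promoters of the genes were read first, because the letters of the p53 element show which members carry a near-consensus match at their start site. RefSeq promoters of 300 bases (250 before and 50 after the start) on the build GRCm38.p6 were matched by symbol for 23 of the 30 genes. They were searched for the 20-base p53 consensus, written as a pair of adjacent half-sites of 10 bases. The element is palindromic, so that 1 pass reads both strands, and the best match of each promoter was kept. At most 1 mismatch was found for 3 of the 23 genes, against 0.107% of the 27025 symbols searched. These are Cdkn1a at chr17:29090928-29090947 on the plus strand, Ccng1 at chr11:40755462-40755481 on the minus strand and Rps27l at chr9:66946296-66946315 on the plus strand. Ckap2, at chr8:22186003-22186022 on the minus strand, followed with 2 mismatches, a limit met by 0.94% of symbols. Each is printed 5′ to 3′ on the gene's strand, with the 4-base core of each half-site in capitals.
Cdkn1a: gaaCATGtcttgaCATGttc
Ccng1: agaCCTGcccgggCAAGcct
Rps27l: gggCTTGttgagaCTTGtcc
Ckap2: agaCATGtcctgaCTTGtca
Counted from the RefSeq start site, the match begins at base -195 for Ccng1 and at base -203 for Ckap2. Cdkn1a and Rps27l each have more than 1 RefSeq start: the Cdkn1a match begins at base -51 from the upstream start and at base -2841 from the downstream start, and the Rps27l match begins at base -117 from the downstream start and lies inside the gene as drawn from 66946086. At most 3 mismatches were met by 10 of the 23 genes and by 7.2% of all symbols. A match describes letters and does not show that p53 binds there. A weak best match does not show that a gene lacks a p53 element, since only these promoter bases and directly adjacent half-sites were read.

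After filtering, 7888 cells with 45249445 UMIs (unique molecular identifiers, each standing for 1 captured RNA molecule) remained in the standard library and 9506 cells with 51540793 UMIs in the FLASH library. The libraries shared 46 barcode sequences of 12867 and 14269. Cells were clustered without the 30 genes and without other p53 genes, so the clusters were not built on the values of these genes. Other genes reported below, such as cell type markers, were not left out. Clusters that matched no other cell type were scored for markers of granule neuron progenitors, cycle phases and differentiating progeny. Those named by these scores, with no minimum outside the cycle phases, are called the tumour lineage. They held 5894 cells (74.7%) and 7370 cells (77.5%). Their states were progenitor-like cells outside S and G2/M (1749 and 2172 cells), S phase-like cells (1151 and 1637), G2/M-like cells (1058 and 1279) and differentiating cells (1684 and 1983). Another 252 and 299 tumour-lineage cells had no state. Outside the lineage were myeloid-like cells (304 and 318), oligodendrocyte-lineage-like cells (118 and 162) and smaller classes, and 4 clusters stayed unnamed. With 1 library per group there is no replicate check and no test. Levels are UMIs scaled to 1000000 UMIs of the class (CPM), and 95% intervals cover counting error only, not the spread between mice, preparations or cells.

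In the tumour lineage, 25 of the 30 genes reached the floor of 100 UMIs over both libraries. The 5 that did not were Fas and Tnfrsf10b, which encode death receptors, Perp, a membrane protein of p53-dependent death, the stress cytokine gene Gdf15, and Dglucy, which encodes a D-glutamate cyclase. Fas had 3 UMIs in the standard and 5 in the FLASH library, Tnfrsf10b 14 and 12, Perp 7 and 4, Gdf15 25 and 30, and Dglucy 14 and 13. The death receptor genes were thus near the limit of detection in tumour cells of both libraries. In the columns of the tumour states, the map of levels shows this group among the dark rows.

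**Figure D1:**
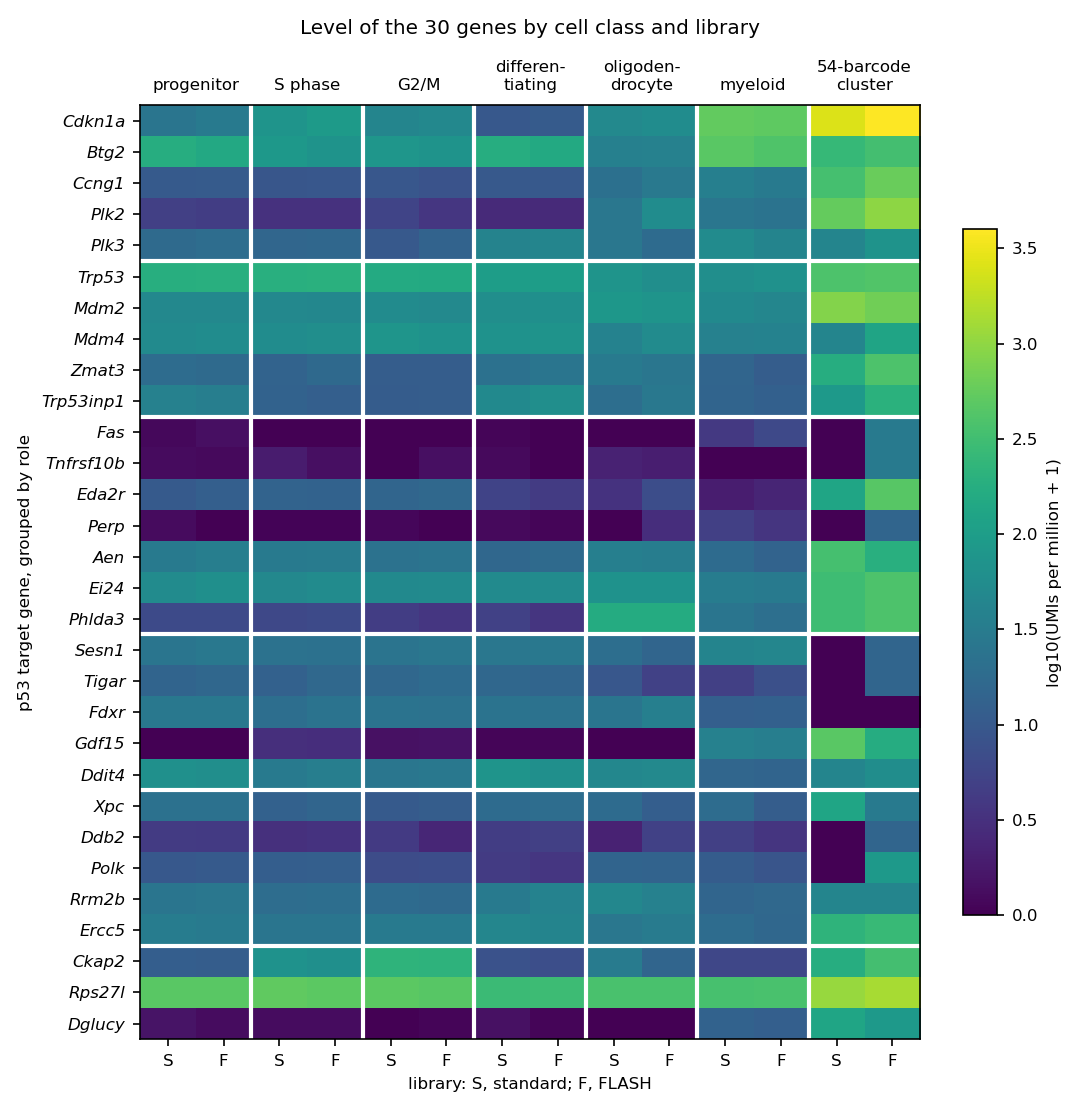
Level of each of the 30 p53 target genes (rows, grouped by role) in cell classes of the standard (S) and FLASH (F) libraries (columns); colour is log10 of CPM plus 1, from 1 sum per class and library. The columns of a pair look alike in the 4 tumour states, while Cdkn1a reaches 541 and 509 CPM in myeloid-like cells and Phlda3 165 and 161 CPM in oligodendrocyte-lineage-like cells.

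The comparison of the libraries addresses whether p53 targets differed between the modes of dose delivery. None of the 25 genes differed by 1.5-fold in the tumour lineage, where 0.833% of the 11889 genes over the floor did. The ratio of FLASH over standard was above 0 on the log2 scale for 15 of the 25, and it was above 0 for 53.8% of all genes. The median log2 ratio was 0.03 over the 25 genes and 0.0095 over all genes. The list as a whole therefore sat close to the background. Within states, 0 members passed 1.5-fold in any: of 23 tested in progenitor-like cells outside S and G2/M (0.986% of genes did), of 23 in S phase-like cells (1.04%), of 21 in G2/M-like cells (1.07%) and of 20 in differentiating cells (0.602%). Those above 0 were 14, 16, 11 and 14 members in the same order, beside 52.1%, 54.6%, 53.8% and 50.8% of all genes. Over all kept cells 0 of 26 members passed (1.54% of genes) and 15 were above 0 (52.2%).

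Cdkn1a had the largest difference of the 25. It stood at 36.7 CPM (95% interval 34.8 to 38.7, 1421 UMIs) in the standard library and at 46.1 CPM (44.1 to 48.1, 2033 UMIs) in the FLASH library, a log2 ratio of 0.33 (0.23 to 0.43). With the tumour clusters held to the same mix in both libraries, the log2 ratio was 0.24. S phase-like cells, where Cdkn1a was highest among the states, were 14.6% of the standard and 17.2% of the FLASH library. The log2 ratio of Cdkn1a within states was 0.27 in progenitor-like cells outside S and G2/M, 0.31 in S phase-like cells and 0.16 in G2/M-like cells, and the interval of the last, -0.06 to 0.39, included 0. In differentiating cells, the state where Cdkn1a was lowest, its levels lay close between the libraries and are given with the states below. Clusters of 1 state were not alike: 1 S phase-like cluster had 84.7 CPM in the standard and 110 CPM in the FLASH library while the other had 55.1 and 57.9, and 1 progenitor-like cluster had 23.4 and 35.6 CPM while the other had 24.04 and 21.5. Whether the library difference itself differs between clusters was not tested.

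Btg2, an antiproliferative gene that is both a p53 target and an early response gene, differed the other way. It stood at 131 CPM in the standard and 111 CPM in the FLASH library, a log2 ratio of -0.24 (-0.29 to -0.18). The log2 ratio of Btg2 was -0.25 in progenitor-like cells outside S and G2/M, -0.24 in S phase-like cells, -0.15 in G2/M-like cells, -0.17 in differentiating cells and -0.25 in myeloid-like cells. It was thus below 0 in each of these 5 classes, and only the G2/M-like interval, -0.32 to 0.03, included 0. All 11 immediate early genes over the floor, which answer to stimuli and to tissue handling within minutes, were below 0 as well, with a median log2 ratio of -0.19. The lowest were Junb at -0.39, Ier3 at -0.38, Fosb at -0.23 and Ier2 at -0.21. Whether these genes bear on the Btg2 value was not tested.

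Among the arrest genes, Ccng1, whose cyclin G product binds a phosphatase that acts on Mdm2, had 8.86 and 8.93 CPM. The kinase genes Plk2 and Plk3 had log2 ratios of -0.11 (-0.49 to 0.27) and 0.11 (-0.03 to 0.25). p53 itself (Trp53) stood at 158 CPM in the standard and 163 CPM in the FLASH library, and its inhibitors also lay close together: Mdm2 had 51.3 and 49.6 CPM, and Mdm4 had 60.3 and 60.9 CPM. The log2 ratio of the feedback target Mdm2 was -0.05 (-0.14 to 0.04), an interval apart from that of Cdkn1a. Further genes had intervals above 0 at small ratios: the nuclease gene Aen at 0.14 (0.02 to 0.26), the death-linked gene Ei24 at 0.11 (0.02 to 0.19) and Rrm2b, a ribonucleotide reductase subunit, at 0.13 (0.004 to 0.26). Ddit4, an inhibitor of mTOR signalling, had -0.10 (-0.19 to -0.004), and Rps27l, a ribosomal protein paralogue, had -0.03 (-0.06 to -0.0008). Intervals of the other 18 genes over the floor included 0.

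The metabolic genes showed the same closeness in the tumour lineage. Sesn1, a sestrin that restrains mTOR signalling, had 23.6 CPM in the standard and 24.9 CPM in the FLASH library. Tigar, which lowers flux through glycolysis, had 13.6 and 15.1 CPM, and Fdxr, a mitochondrial reductase, had 22.7 and 23.2 CPM. The repair genes did not depart from this. Ercc5, an excision repair nuclease, had 32.1 and 30.2 CPM, Xpc had 15.3 and 16.3 CPM, and Ddb2, a sensor of ultraviolet lesions, had 2.89 CPM (112 UMIs) and 2.63 CPM (116 UMIs). Rrm2b in differentiating cells was the widest departure of this role among values over the floor in the tumour states, at 29.7 CPM in the standard and 38.3 CPM in the FLASH library, a log2 ratio of 0.37 (0.13 to 0.60).

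**Figure D2:**
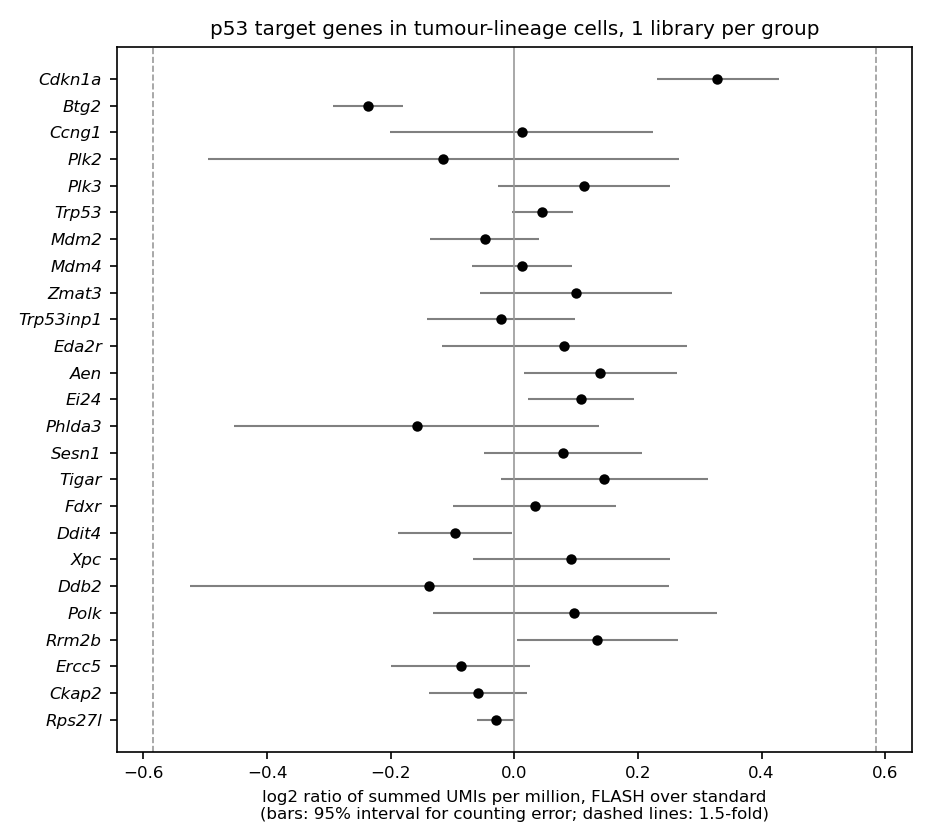
Log2 ratio of FLASH over standard (x axis) for the 25 p53 target genes over the floor in tumour-lineage cells (y axis); points are ratios of CPM from 1 library per group, bars are 95% intervals for counting error, dashed lines mark 1.5-fold. Every point lies between the dashed lines, with Cdkn1a at 0.33 and Btg2 at -0.24 at the ends.

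Outside the tumour lineage the libraries also lay close. Of 12 members over the floor in myeloid-like cells and 5 in oligodendrocyte-lineage-like cells, 0 differed by 1.5-fold, as 2.56% and 7.05% of genes did, and 4 and 2 of them were above 0, beside 51.8% and 53.4% of genes. Cdkn1a stood at 541 CPM in the myeloid-like cells of the standard and 509 CPM in those of the FLASH library. The other p53 targets fixed as a list for comparison gave 0 of 17 past 1.5-fold in the tumour lineage, and those farthest from 0 were Sesn2 at 0.50 (0.29 to 0.71), Rprm at 0.35, Pvt1 at 0.16 and Tob1 at -0.14. Bbc3, which encodes the death effector PUMA, had -0.07 (-0.20 to 0.07). Of the 12 p53 regulators, 10 were above 0, with a median of 0.05. The ATF4 stress genes, which respond to amino acid shortage and unfolded protein and which overlap in regulation with several p53 targets, had 9 of 11 above 0 and a median of 0.28, with Trib3 at 0.89 and Nupr1 at 0.79.

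Between tumour states the genes differed more than between libraries, as did genes in general. Each state was set against progenitor-like cells outside S and G2/M. A gene is counted where it passed 1.5-fold in the same direction in both libraries. In S phase-like cells 2 of 23 tested genes were higher and 3 lower, where 9.37% and 5.33% of all genes were (14.7% either way). In G2/M-like cells 2 of 22 were higher and 6 lower, beside 7.94% and 10.7% (18.7%). In differentiating cells 1 of 22 was higher and 7 lower, beside 15.1% and 11.9% (27.0%).

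Cdkn1a levels had the same order over states in both libraries. In the standard library it stood at 8.93 CPM in differentiating cells, 23.7 in progenitor-like cells outside S and G2/M, 42.2 in G2/M-like cells and 72.7 in S phase-like cells. In the FLASH library the same states had 9.71, 28.7, 47.2 and 90.4 CPM. The counting intervals of neighbouring states, each pooled over its clusters, did not overlap in either library. Single clusters did not all keep this order: with the libraries summed, the S phase-like clusters had 99.4 and 56.6 CPM and the G2/M-like clusters 62.6, 43.3 and 28.5 CPM. Because S phase-like cells were deeper (a median of 8806 and 7726 UMIs, against 6490 and 5668 in the progenitor-like cells), each cell was also thinned to 2000 UMIs. The share of cells with a Cdkn1a UMI was then 11.99% and 14.03% in S phase-like cells and 3.36% and 4.35% in progenitor-like cells, where the unthinned shares were 31.2% and 32.6% against 8.52% and 9.21%. Erythroid-like cells were read for comparison, at median depths of 7132 and 6920 UMIs. They had 0 Cdkn1a UMIs in 29 cells of the standard library, where 3 UMIs would be 14.6 CPM. In 37 cells of the FLASH library they had 7 UMIs (25.7 CPM), 5 of them in 1 cell. Without that cell the FLASH level was 7.57 CPM, beside the 9.71 CPM of differentiating cells. So few erythroid-like cells cannot show whether the pooled level of differentiating or progenitor-like cells lies above background. Among differentiating cells, 1 small cluster of 3 and 7 cells had 2 and 9 Cdkn1a UMIs (169 and 289 CPM).

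**Figure D3:**
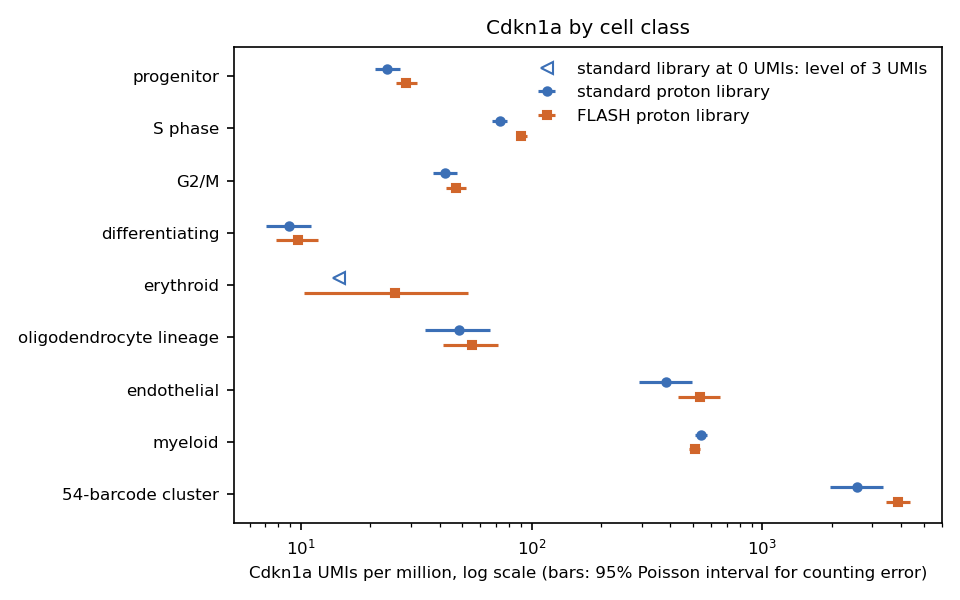
Cdkn1a level (x axis, CPM, log scale) by cell class (y axis) in the standard (circles) and FLASH (squares) libraries; bars are 95% Poisson intervals for counting error and the open triangle marks the level of 3 UMIs for a class with 0. Levels run from 8.93 and 9.71 CPM in differentiating cells to 541 and 509 CPM in myeloid-like cells and 2585 and 3872 CPM in an unnamed cluster of 54 barcodes.

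Other arrest genes did not follow Cdkn1a. Btg2 was lower in S phase-like cells, at 81.8 and 69.2 CPM against 175 and 148 in progenitor-like cells, and in G2/M-like cells, at 78.1 and 70.5 CPM. Plk3 was higher in differentiating cells, at 40.1 and 43.1 CPM against 16.5 and 18.6. Ccng1 passed the fold in no contrast, with 7.29 to 9.96 CPM over the 4 states of both libraries.

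Of p53 and its regulators, Trp53 was lower in differentiating cells, at 99.9 and 101 CPM against 178 and 184, and Mdm2 and Mdm4 passed the fold in no state. Trp53inp1, which encodes a p53-induced nuclear protein linked to autophagy, had the lowest ratio of all members in both cycling states: 36.8 and 33.1 CPM in progenitor-like cells outside S and G2/M, 12.5 and 11.2 in S phase-like cells and 10.1 and 10.4 in G2/M-like cells. In differentiating cells Trp53inp1 stood at 49.4 and 58.8 CPM. Zmat3, which encodes an RNA-binding p53 target, was lower in G2/M-like cells, at 10.5 and 10.6 CPM against 17.9 and 16.6.

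Of the death and survival genes, Eda2r, a receptor of the TNF family, was lower in differentiating cells, at 4.24 and 3.24 CPM against 9.44 and 11.2, and so was Aen, at 14.8 and 16.5 CPM against 28.8 and 33.9. Among repair genes, Polk, a translesion DNA polymerase, was lower in differentiating cells at 3.24 and 2.70 CPM and in G2/M-like cells at 5.76 and 6.01 CPM, against 8.72 and 9.56 in progenitor-like cells. Xpc, a sensor of nucleotide excision repair, was lower in G2/M-like cells, at 9.36 and 10.4 CPM against 21.3 and 20.9. Ercc5 and Rrm2b, also of DNA repair and nucleotide supply, passed the fold in no contrast, nor did the metabolic genes Sesn1, Tigar and Fdxr. Ddit4 was lower in both cycling states: 63.2 and 59.3 CPM in progenitor-like cells, 28.4 and 33.6 in S phase-like cells and 24.8 and 26.5 in G2/M-like cells.

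Ckap2, a spindle protein gene, had the widest range over states, with 10.8 and 10.4 CPM in progenitor-like cells outside S and G2/M, 67.8 and 60.9 in S phase-like cells, 220 and 210 in G2/M-like cells and 7.03 and 6.26 in differentiating cells. Rps27l was lower in differentiating cells, at 285 and 288 CPM against 471 and 473.

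In myeloid-like cells 8 of 26 tested genes were higher than in the tumour lineage in both libraries and 11 were lower, where 16.2% and 51.2% of all genes were (67.5% either way). The 8 were Cdkn1a, Btg2, Ccng1, Plk2, Plk3, Phlda3, Sesn1 and Gdf15. Cdkn1a had log2 ratios of 3.88 and 3.46. Myeloid-like cells made up 3.85% of the standard and 3.35% of the FLASH library and held 4.57% and 4.40% of the UMIs, yet 40.0% and 30.8% of the Cdkn1a UMIs. Gdf15 passed the floor of 100 UMIs only through its 77 and 76 UMIs in myeloid-like cells, beside 25 and 30 in the far larger tumour lineage, so it had to differ, and without it the count was 7 of 25. It stood at 37.2 and 33.5 CPM against 0.646 and 0.680. Btg2 stood at 480 and 403 CPM. Trp53 itself was lower, at 59.0 and 66.1 CPM against 158 and 163, as were Eda2r, Ei24, Mdm4, Tigar, Fdxr, Ercc5, Rrm2b, Trp53inp1, Ddit4 and Ckap2. Mdm2 stood at 49.8 and 44.1 CPM, near its level in tumour cells. Of the immediate early genes, 9 of 12 were higher in myeloid-like cells.

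Oligodendrocyte-lineage-like cells had 5 of 25 tested genes higher and 5 lower, beside 20.3% and 20.6% of all genes (40.9% either way), so the counts were at the background. The gene that set this class apart was Phlda3, whose product restrains Akt signalling, with 165 CPM (137 UMIs) and 161 CPM (161 UMIs) against 4.93 and 4.42 in the tumour lineage, log2 ratios of 5.07 and 5.19. Plk2 stood at 25.4 and 55.0 CPM against 2.97 and 2.74, and Ccng1 at 20.5 and 28.0 CPM. Polk and Rrm2b were the other genes that were higher. Cdkn1a had 48.3 and 55.0 CPM, close to its 36.7 and 46.1 in the tumour lineage, so in this class Phlda3 was far above its tumour level and Cdkn1a was not. Endothelial-like cells, a class of 33 and 50 cells outside the rule of 50 in each library and named after its values were seen, had Cdkn1a at 384 and 537 CPM, Plk2 at 156 and 187 CPM and Polk at 150 and 105 CPM. Of the 59 Cdkn1a UMIs of the standard library 28 were in 1 of the 33 cells, and the level without that cell was 219 CPM.

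Which genes share cells with Cdkn1a was then asked within the tumour lineage. Cells with at least 2 Cdkn1a UMIs numbered 285 (4.84%) in the standard and 428 (5.81%) in the FLASH library, and they were set against the 5149 and 6332 cells with 0. The Cdkn1a-high cells were deeper, with medians of 9593 and 8103 UMIs against 6116 and 5466.5, so sums were scaled to their own totals without Cdkn1a. S phase-like cells were 59.6% and 61.9% of the Cdkn1a-high cells and 15.4% and 17.4% of the cells with 0.

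Of the 24 other genes tested, 3 were higher in both libraries and 1 lower, where 4.81% and 6.07% of all genes were (10.9% either way). Phlda3 had 11.5 CPM (32 UMIs) in Cdkn1a-high cells and 4.22 in cells with 0 in the standard library, and 9.54 CPM (35 UMIs) and 3.64 in the FLASH library, log2 ratios of 1.46 (0.84 to 2.01) and 1.41 (0.81 to 1.94). Eda2r had log2 ratios of 0.75 and 0.86, and Ckap2 of 0.75 and 0.72. Trp53inp1 was lower, with -0.94 in both. Mdm2, by contrast, had 0.22 (-0.02 to 0.45) and -0.05 (-0.28 to 0.17), and Ccng1 had -0.05 and -0.21. Gdf15, under the floor, had 16 and 11 UMIs in the Cdkn1a-high cells and 8 and 13 UMIs in the far larger set of cells with 0. Of the 55 Gdf15 UMIs of the tumour lineage, 46 were in S phase-like cells, the state of most Cdkn1a-high cells. The part of cell state in these Gdf15 counts was not tested. Cells were also thinned to 2000 UMIs and grouped anew by their remaining Cdkn1a UMIs, over all tumour clusters together. In the standard library the mean number of other members detected was 2.30 in 46 cells with at least 2 and 2.01 in 5150 with 0. In the FLASH library it was 2.29 in 94 and 2.04 in 6385. Cells with 1 Cdkn1a UMI had means of 2.07 and 2.03, and the median was 2 in each group.

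With the Cdkn1a-high cells and the cells with 0 compared within clusters at the same mix of clusters, Phlda3 was the 1 gene of the 24 that stayed past 1.5-fold in both libraries, with log2 ratios of 1.62 and 1.53, where 0.524% of all genes were higher and 0.44% lower. Eda2r then had 0.27 and 0.41, Ckap2 -0.02 and 0.05, and Trp53inp1 0.13 and 0.23. Without the 5 cells with most Phlda3 UMIs in each library, the lower of the unmixed Phlda3 ratios was 0.88. Within S phase-like cells alone Phlda3 was under the floor, and 0 of the 16 genes tested there passed. Markers of other cell types were read in the same sets of cells, those with at least 2 Cdkn1a UMIs first and those with 0 second. The summed level of the 7 monocyte markers was 88.9 and 71.5 CPM in the standard and 89.1 and 77.1 CPM in the FLASH library, and that of the 8 oligodendrocyte precursor markers was 165.61 and 165.55, and 188 and 178 CPM. The 8 oligodendrocyte markers had 91.0 and 164 CPM in the standard and 161 and 231 CPM in the FLASH library. The 8 microglia markers had 18.3 and 23.0, and 26.4 and 23.7 CPM, and the 6 pericyte markers 16.1 and 7.79, and 4.91 and 6.36 CPM. The macrophage markers had 58.8 and 90.2 CPM in the standard and 83.4 and 102 CPM in the FLASH library. The shared myeloid markers had 21.5 and 25.8, and 16.4 and 29.6 CPM. The monocyte list was thus higher in the Cdkn1a-high cells of both libraries, while the macrophage, shared myeloid and oligodendrocyte lists were lower in both. The oligodendrocyte precursor list was nearly equal in the standard and higher in the FLASH library, and the microglia and pericyte lists differed in direction between libraries. Their part in the Phlda3 ratio was not tested.

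Over all genes, the 10 with the highest ratio in the library where it was lower were Slc7a3, Cebpb, Nupr1, Cacng3, Chac1, Tpm2, Stc2, Calb2, Eif4ebp1 and Mthfd2, of which Tpm2 differed most between libraries, at 4.49 and 1.88. Several are known for amino acid supply or for the ATF4 response: Slc7a3 is an amino acid transporter, Chac1 degrades glutathione and Mthfd2 is a mitochondrial folate enzyme. Of the 10 ATF4 stress genes tested, 7 were higher in both libraries and 0 lower, with medians of 1.30 and 1.46. Cebpb had log2 ratios of 2.36 and 2.59, Nupr1 2.44 and 2.35, Chac1 2.25 and 2.39, and Asns, which makes asparagine, 1.41 and 1.53. At the same mix of clusters 5 of the 10 stayed past 1.5-fold in both, and the ratios were 1.96 and 2.15 for Cebpb, 1.24 and 1.16 for Nupr1, 0.87 and 1.05 for Chac1, and 0.77 and 0.93 for Asns. Of the 17 other p53 targets tested, 3 were higher, and the largest was Sesn2, at 1.46 and 1.92 (0.90 and 1.04 at the same mix). Bbc3 had -0.70 and -0.17.

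**Figure D4:**
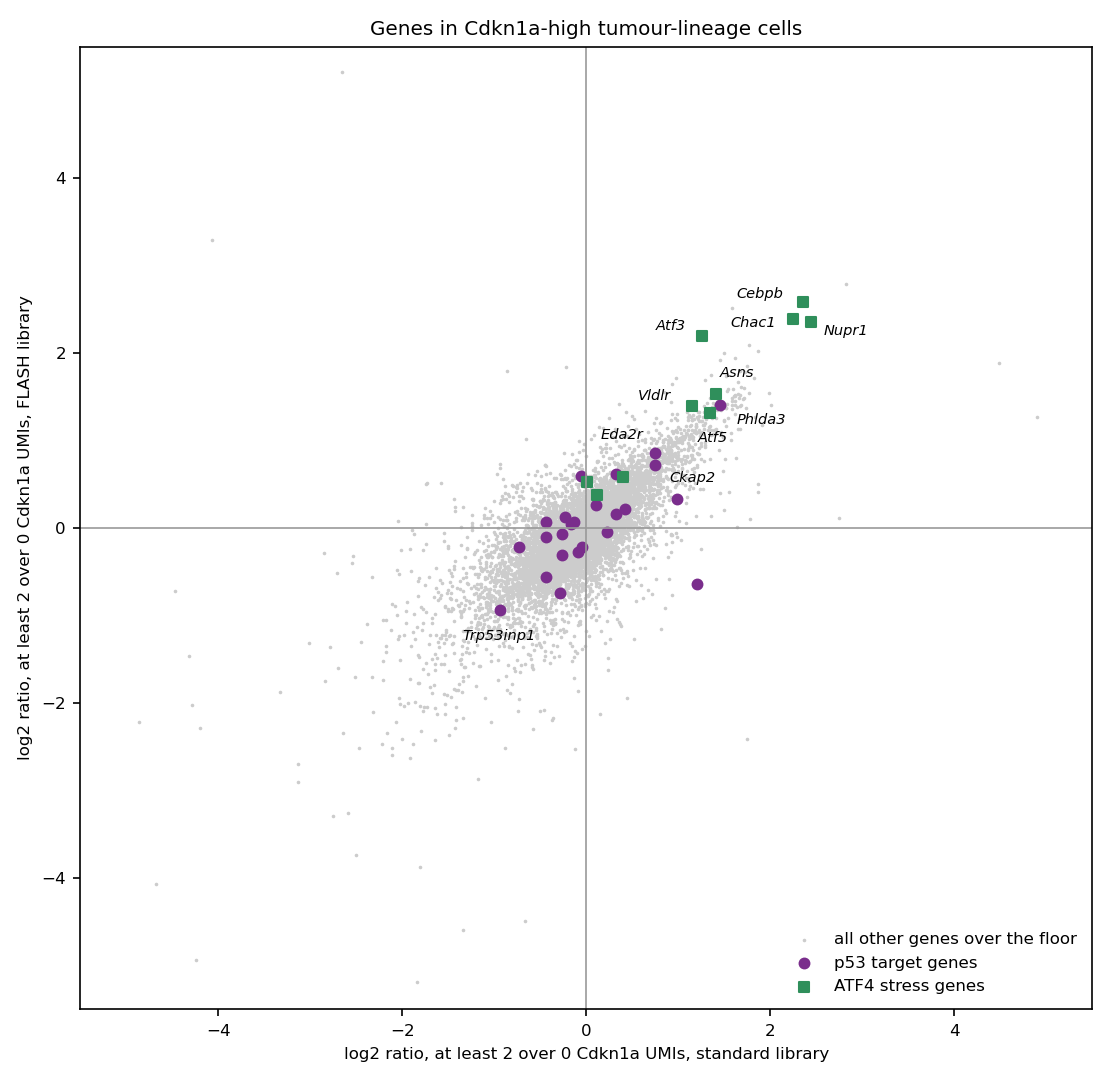
Log2 ratio of each gene between tumour-lineage cells with at least 2 and with 0 Cdkn1a UMIs, in the standard library (x axis) and the FLASH library (y axis); purple circles are the 24 tested p53 target genes, green squares the 10 tested ATF4 stress genes, grey points all other genes over the floor, and names mark genes past 1.5-fold in both. Most purple circles lie near 0, with Phlda3 at 1.46 and 1.41, while 7 green squares lie at 1.15 or more in the standard library.

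A different set of cells was described next. Of the 4 unnamed clusters, the one with the most Cdkn1a had 12 barcodes in the standard and 42 in the FLASH library, and it was picked for that value after the data were seen, so its Cdkn1a level is a description. Its 54 barcodes were shallow, with a median of 1323.5 UMIs and 94232 UMIs in all, and their median mitochondrial share was 1.78%. Cdkn1a stood at 2585 CPM (60 UMIs) and 3872 CPM (275 UMIs). The cluster held 2.15% of the Cdkn1a UMIs of the standard and 7.33% of those of the FLASH library.

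A gene was counted with at least 3 UMIs in the cluster in each library and at least 1.5-fold above the tumour lineage in both, a rule added after the data were seen. It was met by 14 of the 25 tested genes, or 13 of the 24 without Cdkn1a, which chose the cluster, and by 6.72% of all genes. In so few UMIs the count turns on the level in tumour cells, since 3 UMIs in the standard library are 129 CPM: 41.7% of the tested genes with at least 3 UMIs in each library met the rule, as did all 14 such members. Nothing is read from the count. The 29 genes other than Cdkn1a made up 0.735% of the UMIs of the cluster and 0.127% of those of the tumour lineage. The 14 spanned most roles: the arrest genes Cdkn1a, Ccng1, Plk2 and Btg2, the p53 loop genes Trp53, Mdm2 and Zmat3, the death and survival genes Eda2r, Aen, Ei24 and Phlda3, the repair gene Ercc5, and Ckap2 and Rps27l. Summed over the libraries, Plk2 stood at 881 CPM (83 UMIs) against 2.85 in the tumour lineage, which is 309-fold. Phlda3 stood at 371 CPM, 79.7-fold, Ccng1 at 531 CPM, 59.6-fold, Eda2r at 382 CPM, 37.3-fold, Zmat3 at 340 CPM, 20.6-fold, and Mdm2 at 711 CPM, 14.1-fold. In the standard library alone these rest on few UMIs, with 13 for Plk2, 7 for Phlda3, 8 for Ccng1, 3 for Eda2r, 4 for Zmat3 and 20 for Mdm2. Trp53 itself was 2.57-fold higher, at 414 CPM.

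Other members rest on few UMIs or none. Fdxr had 0 UMIs, where 3 UMIs would be 31.8 CPM, above the 22.9 CPM of the tumour lineage, so a level below that of tumour cells was not detectable at this depth. The metabolic genes Sesn1 and Tigar and the repair gene Ddb2 had 1 UMI each, which is 10.6 CPM with an interval of 0.269 to 59.1, and no direction can be read against the 24.3, 14.4 and 2.75 CPM of the tumour lineage. Ddit4 stood at 53.1 CPM against 46.7. Of the genes under the floor in tumour cells, Gdf15 had 23 UMIs, 368-fold above the tumour lineage, and Dglucy had 9 UMIs, 293-fold, while Fas and Tnfrsf10b had 2 each and Perp 1. The 2 UMIs are 21.2 CPM (2.57 to 76.7), against 0.0966 CPM for Fas and 0.314 for Tnfrsf10b in the tumour lineage, and Perp had 10.6 CPM (0.269 to 59.1) against 0.133.

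Of the 54 barcodes 40 had a Cdkn1a UMI, so most barcodes of any gene also hold one, and no link between genes is read from the overlap. The median barcode held UMIs of 6.5 of the other 29 genes. Mdm2 was found in 34 barcodes, 28 of them with Cdkn1a, Plk2 in 27 (23 with Cdkn1a), Ccng1 in 25 (21), Eda2r in 23 (20), Phlda3 in 19 (18), Aen in 17 (13) and Ercc5 in 17 (12). Of the other p53 targets 5 of 17 met the same rule, and those with the largest summed ratios were Trp53cor1 (28 UMIs) and Pmaip1 (27 UMIs), outside the 17 for their low level, and Bbc3 (166 UMIs, 1762 CPM against 22.5) and Psrc1 (51 UMIs). Pmaip1 and Bbc3 encode the death effectors NOXA and PUMA. The ATF4 stress genes of the Cdkn1a-high tumour cells were uneven here: Chac1 and Trib3 had 0 UMIs, Nupr1 1 and Asns 2, while Atf3 had 17, Cebpb 9 and Atf4 69. At the depth of this cluster 3 UMIs are 31.8 CPM, so counts of 0 to 2 do not show absence. The 9 UMIs of Cebpb are 95.5 CPM, against 17.9 and 23.5 CPM in the Cdkn1a-high tumour cells of the standard and FLASH libraries. Immediate early genes were higher for 8 of 11, with Jun at 8957 CPM against 643.

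**Figure D5:**
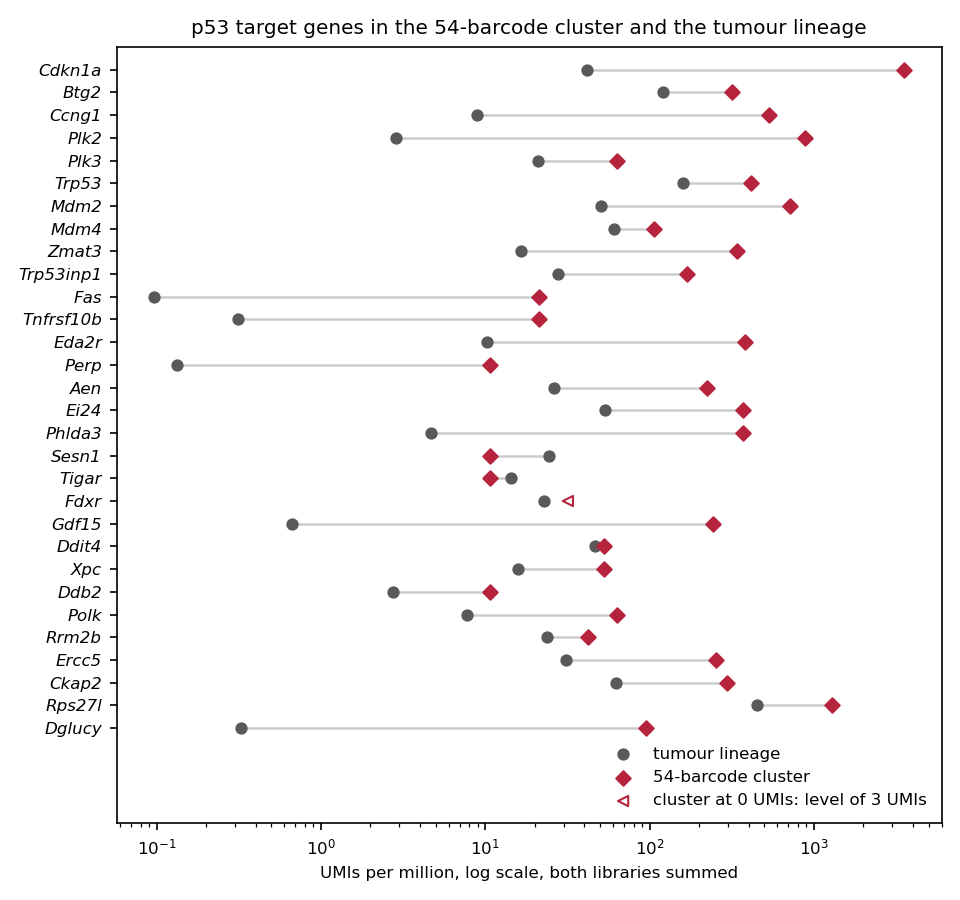
Level of the 30 p53 target genes (y axis) in the 54-barcode cluster (diamonds) and the tumour lineage (circles), in CPM on a log scale with both libraries summed; the open triangle marks the level of 3 UMIs for the 1 gene at 0. Cdkn1a and Plk2 reach 3555 and 881 CPM in the cluster, and Sesn1, Tigar, Ddb2 and Perp rest on 1 UMI each, at 10.6 CPM.

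The cell type of these 54 barcodes could not be named. Progenitor markers summed to 1422 and 1352 CPM, against 2878 and 3013 in the tumour lineage, with 6 and 1 of 12 at 0, and differentiating granule neuron markers to 1723 and 2563 CPM, against 3824 and 3706, with 4 and 2 of 18 at 0. Endothelial markers summed to 302 and 211 CPM, against 6.61 and 7.80, with 6 and 7 of 8 at 0, the defining Cldn5, Kdr and Cdh5 among them. Oligodendrocyte markers summed to 345 and 507 CPM, against 158 and 218, with 5 and 2 of 8 at 0, and microglia markers to 129 and 70.4 CPM, against 22.7 and 23.7, with 6 and 4 of 8 at 0, P2ry12 and Tmem119 among them. The transgene Cre stood at 244 CPM in the cluster and 767 CPM in the tumour lineage, where erythroid-like cells had 574 CPM, so its presence does not mark the lineage. The nuclear RNA Malat1 stood at 37026 CPM against 16149, and the long RNA Meg3 at 944 CPM against 15.5. The part of low depth, nuclear RNA and cell type in the p53 gene levels of this cluster was not tested.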

How the data were processed

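Tumour-derived cells of 2 libraries, 1 per group, were measured with a 10x Genomics droplet protocol, per the labels' protocols. The authors deposited UMI counts per gene and barcode. They were written by Cell Ranger 6.1.2 (per the file headers) on mm10, per the submitters' processing notes. The annotation release and the filter on barcodes were not stated. Barcodes with at least 500 genes and at most 10% mitochondrial UMIs were kept (8461 of 12867 and 10366 of 14269). Scrublet's automatic threshold marked 0 cells in both libraries, so the highest scores were removed at 0.8% per 1000 cells (573 and 860 barcodes).

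Counts were scaled to 10000 per cell and logged for clustering (scanpy 1.11.5, leidenalg 0.10.2; 2000 variable genes, 30 components, 15 neighbours, resolution 1), without p53, mitochondrial, ribosomal and sex-linked genes. Cluster names outside the granule neuron lineage rest on markers with a mean log2 of at least 1.5 and at least 3 markers past 1. Other clusters were called S phase-like or G2/M-like at a mean of at least 0.5. The rest took the higher of the progenitor and differentiating neuron means, with no minimum. The progenitor-like clusters had means of 0.22 and 0.35, with 0 and 1 markers past 1. These naming rules, the choice of the 54-barcode cluster and its minimum of 3 UMIs were set after the data were seen. The 30 genes and all lists were chosen with earlier results of these data known.

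UMIs were summed per class and library. Ratios used a prior count of 0.5 (none for the 54-barcode cluster), a floor of 100 UMIs over both sums and exact conditional binomial intervals at 95%; levels have Poisson intervals. Ratios and intervals were tested on simulated data. All 30 genes were to be named, with the 4 members of each other list farthest from 0 and, beside Cdkn1a, the 10 genes with the highest ratio; values of further genes were chosen after they were seen. Promoter sequences are from RefSeq on GRCm38.p6, and 7 genes had no promoter in that table. Thinning left out 1478 and 1642 cells with under 2000 UMIs.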

Additional observations from a re-analysis of the deposited data

How the results depend on the processing

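With 1 library per group, no result has a replicate check, and a difference between libraries cannot be told apart from a difference between mice, dissociations or captures. No paired analysis was possible because each group holds 1 library. Of the counts and levels that answer a comparison, 56 alternative values kept the reported value within the limits set and 7 moved. With a difference of 25% counted in place of 1.5-fold, 1 of 25 genes (0.33 for Cdkn1a) passed between libraries and 7 of 24 passed in Cdkn1a-high cells. No share over all genes at 25% stands beside these counts, so nothing is read from them. The 4 genes counted in Cdkn1a-high cells became 1 with clusters at the same mix, 1 in progenitor-like cells alone and 0 of 16 tested in S phase-like cells alone. The log2 ratio of Cdkn1a between libraries was 0.45 with the 54-barcode cluster in the tumour lineage and 0.44 with all unnamed clusters. Among single genes, 785 values were kept, 66 moved and 5 reversed. The reversed values, all for Cdkn1a-high cells in the library with the lower ratio, were 0.13 for Trp53inp1 and -0.023 for Ckap2 at the same mix, 0.48 for Xpc in differentiating cells alone, -0.094 for Eda2r in S phase-like cells alone, and 0.080 for Trp53inp1 in progenitor-like cells outside S and G2/M alone. The cause was not tested. The S phase-alone, progenitor-outside-S-and-G2/M and unnamed-cluster alternatives were chosen after seeing the data. The 54-barcode cluster was found again with 12 and 42 barcodes at resolution 0.5, with p53 genes in the clustering and with doublets kept. A minimum of 1000 genes left no such cluster, and the cluster with the most Cdkn1a was then myeloid-like.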
